A study of Glycine max with 13 samples.

Results

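Auxin response factors (ARFs) are the plant transcription factors through which the hormone auxin changes gene activity. They bind short DNA elements built around the bases TGTC, often as dimers on a pair of such elements, and fall into clades: clade A proteins are generally described as activators of auxin-responsive genes and clade B proteins as repressors. The sites described here are positions of soybean genomic DNA at which exactly 2 or 3 of 6 maize clade A ARFs had a binding event and none of 6 clade B ARFs had one. They lie between sites held by a single ARF and sites that most of the clade occupied.

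The assay was DAP-seq, short for DNA affinity purification sequencing: a tagged transcription factor synthesised in vitro pulls fragments out of purified genomic DNA, and these are sequenced. The DNA came from soybean leaf, and each library held a single maize ARF: ARF4, ARF16, ARF18, ARF27, ARF29 or ARF34 of clade A, or ARF7, ARF10, ARF14, ARF25, ARF36 or ARF39 of clade B. The clades come from the published maize phylogeny and not from the labels. With 1 library per ARF, no value below has a replicate check, and the tag control was not analysed here. Purified DNA carries no nucleosomes, so the lists record what each protein could bind, not what it occupies in a cell.

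The authors placed each binding event at a single base, and these positions were chained into 1 site where neighbours lay within 100 bp. This gave 71895 sites, of which 11595 (16.1%) met the rule. Of these, 7980 sites (68.8%) had 2 clade A ARFs and 3615 (31.2%) had 3. Together they held 27325 events, which was 30.7% of the 88906 clade A events. The sites were chosen by the presence or absence of events in the 12 lists, so the combinations and ranks given next are descriptions without a test. The lists give no read totals. An ARF counted as absent may therefore lie under the threshold of its list, and strengths are compared only as ranks within a list.

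With the lists at full length, ARF16 with ARF34 was by far the commonest pair. At 4652 of the 7980 sites of 2 ARFs (58.3%) the pair was ARF16 with ARF34, against 1659.7 sites expected from the product of the list lengths, a ratio of 2.80. The next pair, ARF4 with ARF34, was found at 1926 sites, against 1905.6 expected (ratio 1.01, and 0.81 with odds over all sites as the expectation). ARF27 with ARF34 followed with 540 sites, against 1002.6 expected (0.54), and ARF4 with ARF29 with 274, against 287.9 expected (0.95). The expected numbers share the observed total among the 15 possible pairs and say nothing about how many sites of 2 ARFs there should be.

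Pairs of clade A proteins without ARF34 were few for the length of their lists. There were 777 of them, against 2776 expected, and 5 of the 15 possible pairs, all with the short ARF18 list, did not occur. Sites of exactly 2 ARFs rarely held ARF16 with a partner other than ARF34. ARF4 with ARF16 was at 174 sites, against 905.2 expected (0.19), and ARF16 with ARF27 at 58, against 476.2 expected (0.12). ARF16 with ARF29 was at 12, against 250.7 expected (0.05). With triples counted, ARF16 shared 2039 sites of the class with ARF4, 1143 with ARF27 and 150 with ARF29. Most of these also held ARF34 and so were not sites of 2 ARFs. Among sites of 2 ARFs, ARF4 was less bound to a single partner and had 174 to 1926 sites with each of the other 4 long lists. In all, 11 of the 15 pairs stood under 0.5 of their expected number, among them the 5 ARF18 pairs that did not occur. Here and for the triples below, the expected numbers share a fixed total. An excess of the leading combinations thus lowers the ratios of the others, and these low ratios are not read as avoidance.

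**Figure D1:**
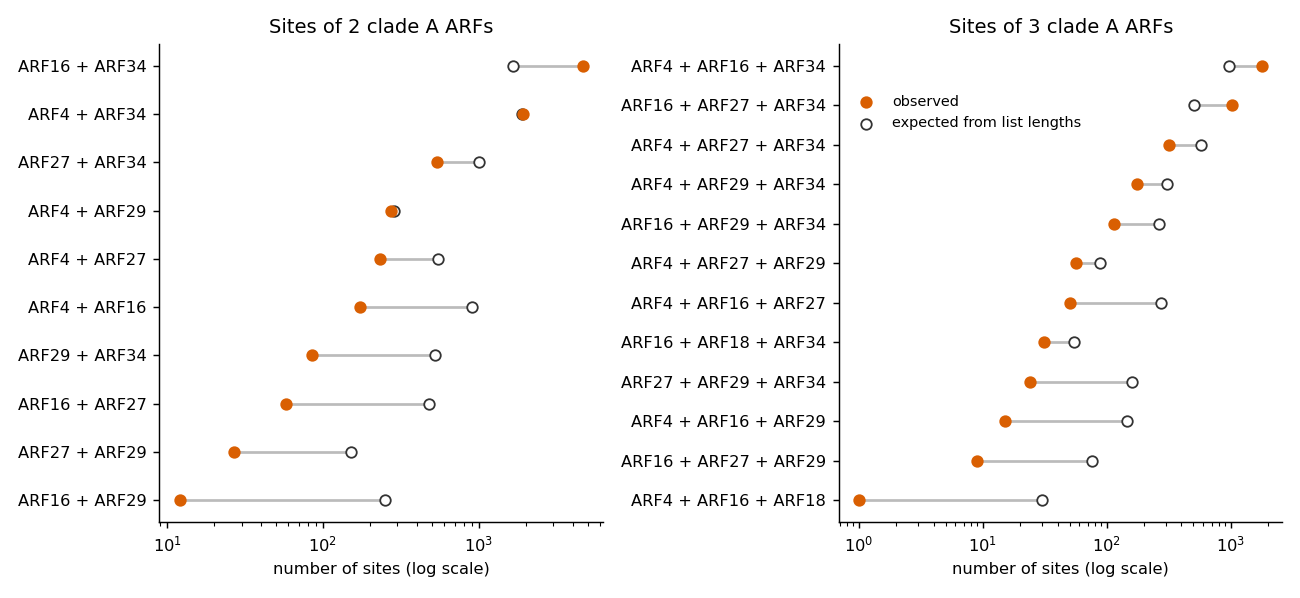
Number of sites (log axis) for each combination seen, with filled circles for observed sites and open circles for the number expected from list lengths. ARF16 with ARF34 and the triples that add ARF4 or ARF27 to it lie to the right of their expected numbers, and most other combinations lie to the left.

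Most sites of 3 ARFs were the same pair with 1 more protein. ARF4, ARF16 and ARF34 shared 1799 of the 3615 sites (49.8%), against 960.1 expected (ratio 1.87). ARF16, ARF27 and ARF34 shared 1026 (28.4%), against 505.1 expected (2.03). These were the 2 of 20 possible triples above the expectation from list lengths. ARF4, ARF27 and ARF29, with 56 sites, stood at 0.64 of that expectation, but at 1.04 of the expectation from numbers at sites without clade B. ARF4, ARF27 and ARF34 had 315 sites (0.54 of expectation), ARF4, ARF29 and ARF34 had 175 (0.57), and 12 triples occurred at all.

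Each protein's part in the class followed from these combinations. ARF34, whose list of 35715 events is the longest of the series, was present at 10687 of the 11595 sites (92.2%), ARF16 at 7941 (68.5%), ARF4 at 5017 (43.3%), ARF27 at 2337 (20.2%), ARF29 at 791 (6.82%) and ARF18 at 32 (0.28%). ARF34 accompanied ARF16 at 96.0% of the ARF16 sites of the class and ARF4 at 84.0% of the ARF4 sites. ARF16 accompanied ARF4 at 40.6%. Over all sites of the series, ARF34 was at 14913 of the 16078 ARF16 sites and at 11640 of the 19107 ARF4 sites. ARF16 was at 8348 of these ARF4 sites. The high share of ARF34 at ARF16 sites was thus not particular to the class. Seen from the lists, the class took 49.4% of all ARF16 sites, 31.0% of ARF34, 26.3% of ARF4, 23.3% of ARF27, 14.8% of ARF29 and 2.96% of ARF18. ARF16 was thus the protein with the largest share of its sites here. Of its sites, 3.66% were its own alone, against 0.37% for ARF18, 5.41% for ARF29 and 5.55% for ARF27. The share was 24.3% for ARF4 and 38.3% for ARF34.

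The 32 sites with ARF18 were mostly ones where its partners ranked high. At 31 of them the partners were ARF16 and ARF34, and at the other they were ARF4 and ARF16. At the 31 sites the median strength percentile was 92.7 in the ARF16 list and 95.5 in the ARF34 list, while that of ARF18 itself was 43.1. Its partners were thus near the top of their lists at these sites. High ranks beside ARF18 were not particular to the class. At the 150 sites of all 6 clade A ARFs, the medians were 94.6 for ARF16 and 96.6 for ARF34. The ARF18 list is short, with 1106 events, and the part of its length was not tested.

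The commonest combinations in the matching class of clade B made up smaller shares of their sites, but such shares also depend on list lengths. Of 5483 sites with exactly 2 clade B ARFs and no clade A ARF, the commonest pair, ARF7 with ARF36, made up 34.03% (1866, against 821.2 expected, ratio 2.27), and 14 of 15 pairs occurred. Of 3075 sites with 3 clade B ARFs, the commonest triple made up 24.6% (756, ratio 2.62). Against expectation, the commonest clade B pair stood lower than that of clade A (2.27 against 2.80). The commonest clade B triple stood higher than that of clade A (2.62 against 1.87).

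Strength was ranked within each list by the authors' signal value, with 100 for the strongest event. The median over the class of the mean percentile of the ARFs present was 48.2, with quartiles of 29.4 and 66.4. At sites of 4 to 6 clade A ARFs it was 60.2, and at sites of 1 clade A ARF 31.5. By number of clade A ARFs the medians were 31.5 for 1 ARF, 46.8 for 2, 51.2 for 3, 55.8 for 4, 63.8 for 5 and 77.3 for 6, so the edges of the class, 2 against 1 and 3 against 4, mark steps of a steady order. A mean percentile of 90 or more was found at 279 sites (2.41%) and one under 10 at 434 (3.74%). A mean of 2 or 3 percentiles reaches such values less often than a single one, so these shares are not read as a trait of the class.

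The members of the clade did not rank alike in the class. Apart from ARF18, the median percentile in the class was higher the longer the list, and the part of list length was not tested. ARF34 events had a median percentile of 60.3 and a median strength of 44.1 at these sites, against 79.4 and 66.8 at sites of 4 to 6 clade A ARFs and 34.04 and 30 at sites of ARF34 alone. ARF4 had a median percentile of 45.2 in the class, against 65.0 at sites of 4 to 6 and 29.4 alone. ARF16 had 43.7, against 64.4 and 20.8. ARF27 had 35.5, against 52.7 and 18.6, and ARF29 had 30.9, against 49.6 and 20.1. ARF18, at 43.1 in the class and 43.1 at sites of 4 to 6, did not share this order. ARF29 events of the class were the weakest for their list, with 19.5% of them in its lowest 10%, and ARF34 events the strongest, with 9.83% in the highest 10% and 5.97% in the lowest. A whole list has about 10% of its events in each of these ranges, so the ARF34 share in the highest 10% was no excess.

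**Figure D2:**
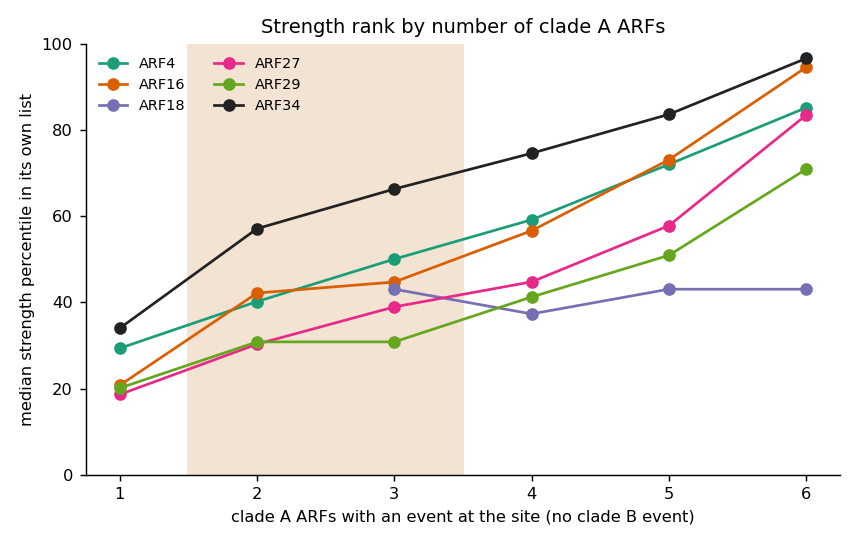
Median within-list strength percentile (vertical axis) of each clade A ARF at sites with 1 to 6 clade A ARFs and no clade B ARF (horizontal axis), for points of at least 20 sites; the shaded band marks sites of 2 or 3. The 5 long lists are higher at each larger number of ARFs or level between 2 and 3 (ARF29, 30.9 at both), whereas ARF18 stays between 37.3 and 43.1.

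Within the commonest pair the ranks within the lists differed. A percentile depends on how far down its list reaches, and the ARF34 list has 35715 events against 16964 for ARF16. The part of list length in these differences was not tested. At the 4652 sites of ARF16 with ARF34 alone, the median percentile was 68.0 in the ARF34 list and 43.7 in the ARF16 list, and ARF34 was the higher at 3974 sites (85.4%). At the 1926 sites of ARF4 with ARF34 the medians were closer, 40.2 for ARF4 and 33.2 for ARF34. Of the 279 sites with a mean percentile of 90 or more, 172 were sites of ARF16 with ARF34, 40 of ARF16, ARF27 and ARF34, 37 of ARF4, ARF16 and ARF34, and 6 of ARF4 with ARF34. Across sites, the ranks of both partners went together most for ARF16 and ARF34 (Spearman rho 0.70, 4652 sites), and less for ARF4 and ARF34 (0.42, 1926 sites) and for ARF29 and ARF34 (0.26, 85 sites). These correlations are across sites that share their libraries and are not independent.

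How often a further clade A protein joined a pair differed between pairs. Among all sites with ARF4 and ARF34 but no clade B ARF, split into 5 groups by ARF34 percentile in its list, ARF16 was also present at 22.9% of the weakest group (230 of 1003 sites), then at 41.2%, 56.8% and 77.4%, and at 92.9% of the strongest (1777 of 1913). Sites with the pair alone were 58.8% of the weakest group and 4.70% of the strongest. For ARF16 with ARF34 the share with ARF4 varied less. ARF4 was also present at 36.7% of the weakest group (230 of 627 sites), at 40.6%, 39.6% and 40.3% of the next, and at 47.4% of the strongest (1777 of 3752). ARF27 was also present at 19.1% of the weakest group (120 sites) and at 46.6% of the strongest (1748), ARF29 at 8.61% and 17.6%, and ARF18 at 0 of 627 sites and 9.65%. In the strongest group, 1362 of the 3752 sites (36.3%) held ARF16 and ARF34 and no other ARF.

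**Figure D3:**
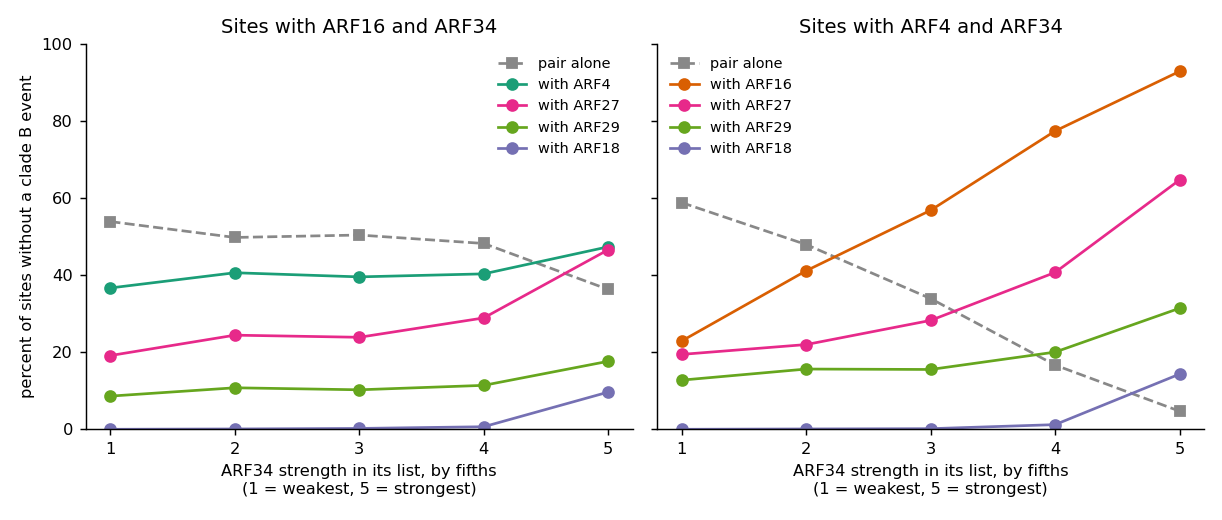
Percent of sites without a clade B ARF (vertical axis) at which a further clade A ARF was present, by 5 groups of ARF34 strength percentile in its list (horizontal axis), for sites with ARF16 and ARF34 (left) and with ARF4 and ARF34 (right); grey squares are sites with the pair alone. ARF16 joins ARF4 and ARF34 at 22.9% to 92.9% of the sites, whereas ARF4 joins ARF16 and ARF34 at 36.7% to 47.4%.

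With ARF27 in place of ARF4 the order was also steep. Where ARF27 and ARF34 were present without clade B, ARF16 was present at 31.2% of the weakest group by ARF34 strength and at 94.2% of the strongest. Sites with ARF27 and ARF34 alone were 35.3% of the weakest group (136 of 385) and 3.61% of the strongest (67 of 1856).

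Sites of the class were narrow. The span from the first to the last event position had a median of 12 bp (quartiles 2 and 33 bp, widest 320 bp), with 9 bp for sites of 2 ARFs and 20 bp for sites of 3, against 32 bp at sites of 4 to 6 clade A ARFs. Several events of the same ARF were found at 458 sites (3.95%). At the edge of the merging rule, 105 sites (0.91%) had a largest gap of 91 to 100 bp between neighbouring events, with a median mean percentile of 39.6. Just outside it, 44 pairs of neighbouring sites of 1 clade A ARF each lay more than 100 and up to 110 bp apart, with a median percentile of 22.7.

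The distance between the events of 2 proteins had a preferred value in each pair given here, though most sites had another distance. The rule did not use distances beyond the 100 bp limit. For these distances the strongest event of each ARF at a site was taken. ARF16 and ARF34 events lay exactly 1 bp apart at 2858 of the 7622 sites of the class that held both (37.5%, Wilson 95% interval 36.4% to 38.6%), and on the same base at 48 (0.63%). ARF4 and ARF16 lay on the same base at 755 of 2039 sites (37.0%). ARF4 and ARF34 lay 1 bp apart at 1337 of 4215 (31.7%), ARF4 and ARF27 2 bp apart at 220 of 653 (33.7%), ARF27 and ARF34 3 bp apart at 540 of 1905 (28.3%), and ARF4 and ARF29 4 bp apart at 143 of 520 (27.5%). Wilson intervals here and below cover counting error only.

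The commonest distances between listed event positions add up along a single axis. Over all sites of the series the commonest distances of the 15 clade A pairs, 0 to 6 bp, were all matched by placing ARF4, ARF16 and ARF18 at 0, ARF34 at 1, ARF29 at 4 and ARF27 at -2 bp. Among whole-base placements within 6 bp of ARF4, no other matched all 15, its mirror image apart. The axis occurred in both directions: ARF16 was before ARF34 at 1520 of the sites 1 bp apart and after it at 1338. Both distances to ARF34 had their commonest value at 168 of the 1026 sites of ARF16, ARF27 and ARF34. Of these, 161 had the events in the order of that axis or its mirror image. Once both distances are fixed, only 1 other arrangement is possible, its mirror image apart. The order of the axis was also found at 62 of 66 such sites among the 315 of ARF4, ARF27 and ARF34. It was found at 13 of 15 such sites of ARF16, ARF29 and ARF34 and at 30 of 30 of ARF4, ARF29 and ARF34. Whether these offsets reflect where each list places its events or where the proteins sit on the DNA was not tested. Over the 66 pairs of the series, events on the same base made up over 20% of the shared sites in 4 pairs and at most 6.84% in the others.

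A further distance stood out at 60 to 69 bp. ARF4 and ARF34 lay 60 to 69 bp apart at 306 of their 4215 shared sites, against 144 at 50 to 59 bp and 94 at 70 to 79 bp. The commonest distance from 40 bp upwards was 64 bp, with 72 sites. ARF16 and ARF34 had 305 sites at 60 to 69 bp, against 188 and 87 in the neighbouring ranges, and ARF4 and ARF16 had 183, against 63 and 21. In both pairs 64 bp was again the commonest distance, with 90 and 41 sites. ARF27 and ARF34, with 59 sites at 60 to 69 bp against 49 at 50 to 59 bp and 36 at 70 to 79 bp, were closer to their neighbouring ranges, and ARF29 and ARF34 had 12 against 23 and 8. The range was singled out after its values were seen.

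**Figure D4:**
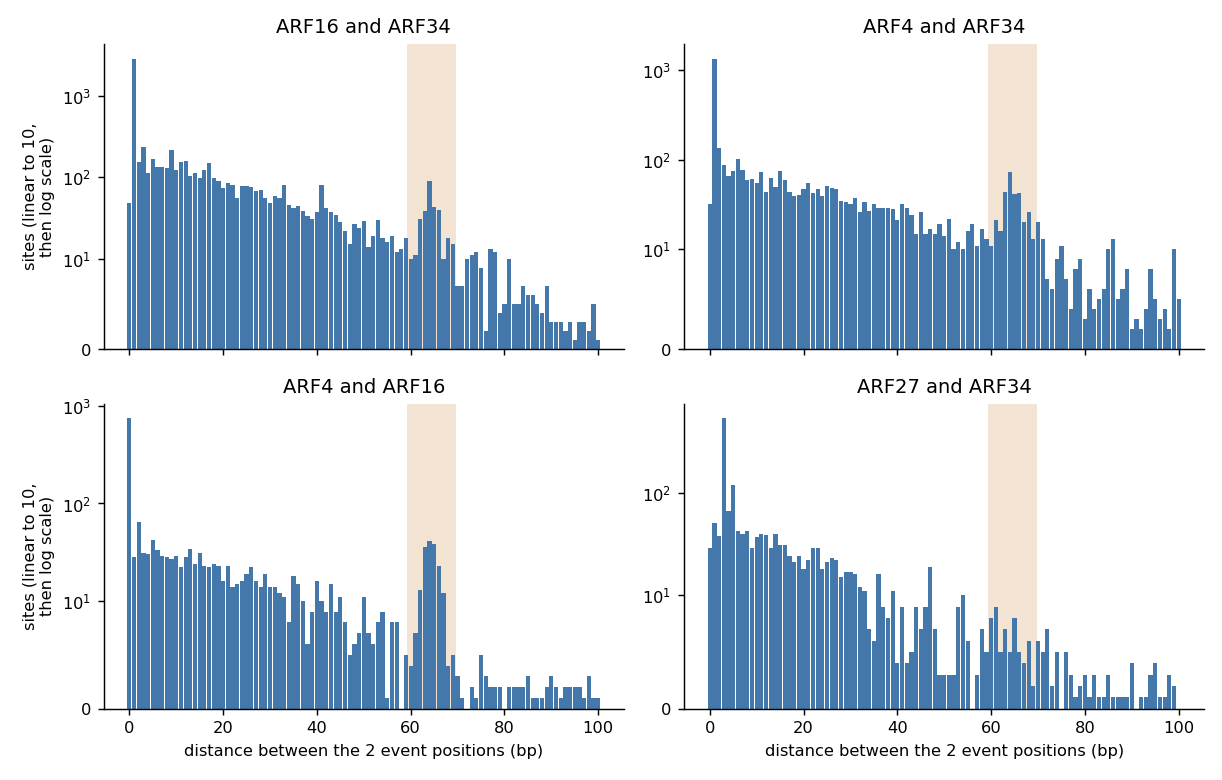
Number of sites (vertical axis, linear to 10 and logarithmic above) by distance between the strongest events of both ARFs (horizontal axis, bp), at sites of 2 or 3 clade A ARFs; the shaded band marks 60 to 69 bp. Each pair has a single tallest bar at 0, 1 or 3 bp, and the pairs among ARF4, ARF16 and ARF34 have a second rise around 64 bp.

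Sites with this spacing lay in the inner part of the chromosomes. In all, 675 sites of the class (5.82%) had clade A events of different ARFs 60 to 69 bp apart, and 70.5% of them (Wilson 67.0% to 73.8%) lay in the middle of a chromosome, taken as 25% to 75% of the way from its first event to its last. Of the 10920 other sites of the class 47.3% did (46.3% to 48.2%). At sites with a distance of 50 to 59 bp the share was 43.3% (38.9% to 47.8%, n = 476), and at 70 to 79 bp 43.3% (37.4% to 49.5%, n = 254). They were spread over all 20 chromosomes, with at most 53 on a single one. ARF4, ARF16 and ARF34 together accounted for 289 of the 675 (42.8%), which was 16.1% of the sites of that triple, and ARF16 with ARF34 alone for 104, which was 2.24% of theirs.

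The same measure was taken at sites the rule did not choose. Of the sites of 4 to 6 clade A ARFs without clade B, 570 (19.99%) had clade A events 60 to 69 bp apart, and 68.4% of these lay in the middle (64.5% to 72.1%), against 40.9% of the other 2281 sites (38.9% to 42.9%). In that group the share was 47.0% at 50 to 59 bp (41.7% to 52.4%, n = 332) and 52.4% at 70 to 79 bp (45.3% to 59.4%, n = 189). Among sites of 2 or 3 clade B ARFs, events 60 to 69 bp apart were fewer than those 50 to 59 bp apart (323 against 518), and 44.3% lay in the middle (39.0% to 49.7%). At sites of both clades, clade A events were 60 to 69 bp apart at 597 sites and 50 to 59 bp apart at 652. Of the 597 sites 49.7% lay in the middle (45.8% to 53.7%), against 41.2% of the other sites of both clades (40.3% to 42.2%). The sequence at these sites was not analysed here.

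Along the chromosomes the class as a whole followed the sites of the series. It had 440 (chromosome 16) to 728 sites (chromosome 18) per chromosome, and 10.9 (chromosome 15) to 13.3 per Mb (chromosome 17), with a median of 12.1. Its share of the sites of a chromosome ran from 15.2% on chromosome 7 to 17.4% on chromosome 17 (SD 0.53 percentage points over 20 chromosomes). Sites of ARF16 with ARF34 made up 36.7% (chromosome 14) to 44.5% (chromosome 11) of the class on each chromosome. Of the class, 48.6% lay in the middle (47.7% to 49.5%), against 47.5% of all sites (47.2% to 47.9%), 46.4% of sites of 4 to 6 clade A ARFs (44.6% to 48.2%) and 45.2% of sites of 1 clade A ARF (44.5% to 45.9%).

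The share in the middle varied between combinations. It was 50.1% for ARF16 with ARF34 (48.6% to 51.5%), 47.2% for ARF4 with ARF34 (45.0% to 49.5%) and 53.2% for ARF4, ARF16 and ARF34 (50.9% to 55.5%), but 42.7% for ARF16, ARF27 and ARF34 (39.7% to 45.7%). Lower shares were found for several smaller combinations: 35.4% for ARF4 with ARF29 (29.98% to 41.2%, n = 274), 34.9% for ARF4 with ARF27 (29.1% to 41.2%, n = 232), 36.2% for ARF16 with ARF27 (25.1% to 49.1%, n = 58) and 36% for ARF4, ARF29 and ARF34 (29.3% to 43.3%, n = 175). Without the sites spaced 60 to 69 bp, the share of ARF4, ARF16 and ARF34 was 48.5% (n = 1510).

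**Figure D5:**
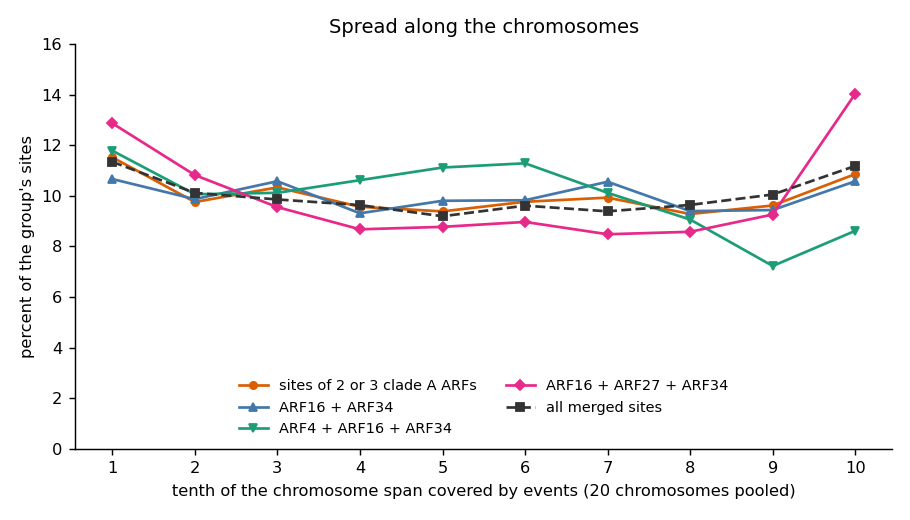
Percent of each group's sites (vertical axis) in each of 10 equal stretches from the first to the last event of a chromosome (horizontal axis), 20 chromosomes pooled. Sites of 2 or 3 clade A ARFs have 9.28% to 11.5% per stretch and all merged sites 9.19% to 11.3%, whereas ARF16, ARF27 and ARF34 have 12.9% and 14.0% at the ends, and ARF4, ARF16 and ARF34 have 11.8% and 8.62% there.

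The position of the class was tested against sites of 4 to 6 clade A ARFs, each of the 6 clade A proteins giving a difference. The share of its sites in the middle averaged 45.8% ± 3.9 (SD, n = 6) in the class and 45.2% ± 2.1 at sites of 4 to 6. The mean difference of 0.55 percentage points was positive for 3 of 6 proteins and did not exceed their spread (two-sided exact sign-flip permutation test, p = 0.59, Benjamini-Hochberg adjusted over 2 tests 0.59). With a merging distance of 50 bp the difference was 7.96 points (exact permutation p = 0.031, adjusted 0.0625). The proteins share these sites, so the 6 differences are not independent. ARF18 counted as much with 32 sites of the class as ARF34 with 10687. Outside the spacing of 60 to 69 bp, which was singled out after its values were seen, 47.3% of the class and 40.9% of sites of 4 to 6 lay in the middle.

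Clade B events were kept out of the sites themselves but not out of their neighbourhood. The nearest clade B event lay at a median distance of 8247 bp, and it lay within 200 bp at 296 sites (2.55%), of which 35 had it within 110 bp, just outside the merging distance. Within 1 kb, a clade B event was found at 11.01% ± 1.0 (SD, n = 6 proteins) of the sites of the class and at 14.7% ± 1.3 of the sites of 4 to 6 clade A ARFs. The difference was -3.68 percentage points and negative for 6 of 6 proteins. The rule used the same clade B lists to choose the sites, and the proteins share most of them, so this difference is a description. The two-sided exact sign-flip permutation test over the 6 proteins gave p = 0.031, the smallest it allows, and 0.0625 after adjustment over 2 tests, and supports nothing here. The direction turned with a merging distance of 50 bp (0.25 points) and with lists of equal length (1.90 points).

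Sites of the class lay close together in places. Another site of the class lay within 500 bp of 849 sites (7.32%), and the median distance to the nearest was 24420 bp. No such share was taken for all sites of the series, so it is not read as a trait of the class. In windows of 100 kb, 66.7% of 9619 windows held at least 1 site, with a mean of 1.21, and 43 windows held 6 or more. The densest lay on chromosome 1 at 16100001 to 16200000, with 14 sites of the class among 32 sites in all, and its neighbour at 16200001 to 16300000 had 10 among 32. On chromosome 7 the window at 23500001 to 23600000 had 13 among 41. The median over chromosomes was 76.3 sites of any kind per Mb, so these windows were dense in sites of all kinds.

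Positions of the strongest sites follow the chromosome numbering of the lists, whose build no source used here names, and genes at them were not analysed. The site with the highest mean percentile, 99.7, was a pair that is rare in the class, ARF27 with ARF29, on chromosome 14 at 33731196 to 33731206, with strengths of 595.3 for ARF27 and 648.5 for ARF29. ARF4 with ARF34 led on chromosome 17 at 23685711 to 23685715, with strengths of 429.7 and 231.0 and a clade B event 325 bp away. The −log10 q was 27.6 for ARF27 and 35.8 for ARF29 at the first of these sites, and 49.65 for ARF4 and 18.7 for ARF34 at the second.

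The leading site of ARF16 with ARF34 lay on chromosome 10 at 29019866 to 29019867, with the events 1 bp apart. Its strengths were 269 for ARF16 and 344 for ARF34, its −log10 q values 69.8 and 62.6, and the nearest clade B event was 22378 bp away. The other 3 of the 6 strongest pairs were also ARF16 with ARF34. The first (chromosome 12, 24043893 to 24043899) had an ARF34 strength of 465.7. The next (chromosome 15, 51638525 to 51638526) had 268.7, and the last (chromosome 11, 2946250 to 2946263) had 243. The leading site of ARF27 with ARF34, on chromosome 1 at 10146420 to 10146425, was weaker, with strengths of 93 and 103.

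Among sites of 3 ARFs, the highest mean percentile, 98.3 ± 2.1 (SD over 3 ARFs), was found for ARF16, ARF18 and ARF34 on chromosome 12 at 34741863 to 34741878, with strengths of 297.9, 114.8 and 242. A clade B event lay 167 bp away. The next 3 were sites of ARF16, ARF27 and ARF34, one each on chromosome 4 (29102211 to 29102304), chromosome 7 (23509471 to 23509534) and chromosome 6 (7748913 to 7748925). In these, ARF16 and ARF34 had strengths of 146 to 285.8 and ARF27 strengths of 73 to 94. ARF4, ARF16 and ARF34 followed on chromosome 7 at 23594716 to 23594717 and chromosome 8 at 42511407 to 42511437. In the first of these the −log10 q was 5.32 for ARF4 and 5.93 for ARF16 with strengths of 148.3 and 118.1. The leading site of ARF4, ARF27 and ARF34 lay on chromosome 14 at 37885687 to 37885714, with a mean percentile of 90.1.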

How the data were processed

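The 13 samples comprise 12 maize ARFs and 1 tag control. Each ARF had 1 deposited event list of 201 bp windows. The submitters' processing notes list the read trimmer Trimmomatic 0.36 and the aligner Bowtie2. The lists' titles name GEM, a caller of binding events. Its settings, any filters and the genome build are not given here by any source. The signal value deposited by the authors is the strength of an event, with no stated scale. The deposited lists also hold a −log10 p and a −log10 q for each event. The deposited display score was not used. Read totals are unknown, so depth is unknown.

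Positions are column 2 plus column 10 of the lists plus 1, and are thus 1-based if the lists count from 0. Sites were made by single linkage within 100 bp. Percentiles are ranks of strength within a list, with ties averaged. Of several events of an ARF at a site the strongest counted. Expected numbers are products of list lengths, scaled to the observed total. Named sites were the 6 strongest of each size by mean percentile and the strongest of the 3 commonest combinations of each size. Differences over the 6 clade A proteins were tested with two-sided exact sign-flip permutation tests, adjusted over 2 tests. The members, the combinations and the tests were chosen with earlier results of these data known, and the distances between proteins were examined after seeing the data. Other settings were distances of 50 and 200 bp, the stronger events of each list by −log10 q (its median or above), lists cut to the shortest, other expectations and windows, and leaving out each ARF. The code was tested on simulated data. Scripts ran in Python 3.11.15 with pandas 2.3.3, numpy 2.4.6 and scipy 1.17.1, and plots were drawn with matplotlib 3.10.9.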

Additional observations from a re-analysis of the deposited data

Results flagged for a closer look

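Of 5 measures of the class compared over the 6 clade A lists, 1 had an end value far from the others. The share of a list's events in the class that lay in its highest 10% was 9.83% for ARF34, against 1.90% to 4.44% for the other 5 lists, and the gap to the nearest was 0.679 of the whole range, above the 95% limit for 6 values. ARF34 has the longest list, 35715 events, and its part in this value was not tested. Chance passes this limit in about 1 of 20 groups of independent values. These 6 lists share sites, 5 measures were compared, and the ARF18 value rests on 1 of 32 sites, so this is a flag and not a test. A whole list has about 10% of its events in its highest 10%, so ARF34 was near that share and the other 5 lists were below it.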

How the results depend on the processing

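The number of sites, 11595, stayed within 1.5 times at merging distances of 50 and 200 bp and with no clade B event within 500 bp (10845 to 12190). When only events reaching their list's median −log10 q were kept, there were 6361 sites (4623 of 2 ARFs, 1738 of 3), and with lists cut to the shortest 743 (500 and 243), since fewer events entered. Leaving out 1 ARF gave 6224 (without ARF34) to 12295 sites in all, 4268 to 8617 of 2 ARFs and 1956 to 3753 of 3. Sites of 3 also moved by over 1.5 times without ARF16 (2349).

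ARF16 with ARF34 remained the commonest pair in every setting that kept both lists. With lists of equal length this pair made up 127 of 500 sites of 2 ARFs, a smaller share than the 4652 of 7980 with full lists. Its ratio of observed to expected sites, 2.80, was 2.70 at 50 bp, 2.87 with events reaching the median −log10 q, 3.81 with lists of equal length, 2.47 with odds over all sites and 2.32 with numbers at sites without clade B. The ratio of the commonest triple, 1.87, was 1.68 at 50 bp, 1.57 and 1.46 with these other expectations, and 6.75 with lists of equal length, where ARF16, ARF18 and ARF34 became the commonest. Leaving out 1 ARF gave 1.42 to 2.80 for the commonest pair, with ARF4 and ARF34 in front without ARF16 (1.48) and ARF4 and ARF16 without ARF34 (1.42), and 1.497 to 1.90 for the triple, which was ARF16, ARF27 and ARF34 without ARF4. ARF4 with ARF34, at 1.01, and ARF4 with ARF29, at 0.95, changed sides with odds (0.81 and 1.33), and ARF4, ARF27 and ARF29, at 0.64, with numbers at sites without clade B (1.04).

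The difference in the middle share, 0.55 points, turned to -0.29 with a middle of 30% to 70% and ran from -0.058 (without ARF10) to 4.99 when 1 ARF was left out. The difference in clade B events within 1 kb, -3.68 points, turned to 0.25 at 50 bp and 1.90 with lists of equal length, and ran from -5.01 to -2.87 when 1 ARF was left out. No setting passed 0.05 after adjustment, and with 5 proteins none could. Except where stated, the cause was not tested. No paired analysis was possible because each ARF has a single library, so no replicate numbers pair libraries. Both tests do set 2 classes of sites side by side within each protein. Unknown depth limits every statement that an ARF is absent.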
